A study of Mus musculus with 4 samples.

Results

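The proteasome genes of brain myeloid cells were examined in single-cell RNA sequencing data. They were taken as every gene of the gene table whose symbol begins with Psma, Psmb, Psmc, Psmd or Psme and a digit and whose mean level was at least 5 CPM over 4 libraries. CPM is the count of unique molecular identifiers (UMIs) of a gene per 1000000 UMIs of the library, summed over its cells. Of 28692 genes in the table, 45 had such a symbol and 42 reached the level, beside 9092 genes of any name that did. Of these 42, 41 encode subunits or assembly factors of the proteasome, and the other, Psme2b, is an intronless near-copy of Psme2. The rule used the symbol and the level and no other measure below, but it was set with earlier results of these data known.

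Each library came from 1 male C57BL/6J mouse aged 90 days that had received PBS through the tail vein, and the labels give no genetic change for any mouse. Cortex and hippocampus were homogenised by cold Dounce, a mechanical method without enzymes, and live cells positive for CD45 and CD11b, surface proteins of leukocytes and myeloid cells, were sorted. The labels place the injection 24 h before sacrifice and the methods of the study give another interval, so the time is uncertain. All 4 libraries form 1 group without an untreated or treated counterpart, and the comparisons are therefore between genes, between libraries and between classes of cells within the libraries.

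Cells were kept if they had 400 or more genes and no more than 10% of their UMIs from mitochondria. By this rule 2576 to 3692 cells per library and 13002 in all remained, with 5841671 to 11267195 UMIs per library. The sorted cells carried the defining markers of microglia: 6 microglial genes summed to 30811 to 32020 CPM. The 6 markers of border macrophages summed to 12 to 76.0 CPM, the 4 monocyte markers to 11.7 to 49.6 CPM, and both neutrophil markers were at 0. In all, 81 cell barcodes occurred in more than 1 library. Immediate early genes, transcripts that rise within minutes of a stimulus, summed to 1057, 1173, 1013 and 2640 CPM in replicates 1 to 4, so replicate 4 stood high. The methods of the study say that the sort of its last mouse was interrupted and took longer at room temperature, but they give that mouse no number. The supplement of the study calls that mouse sample 4 and reports a signature of activation outside the body, which includes immediate early genes, almost only in it. Replicate 4 is the last in sample order and has the highest number in the labels, 8. The labels themselves do not name the interrupted sort.

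The proteasome degrades proteins tagged with ubiquitin. Its barrel-shaped core particle has outer rings of alpha subunits, which gate the entry, and inner rings of beta subunits, of which Psmb5, Psmb6 and Psmb7 carry the chymotrypsin-like, caspase-like and trypsin-like activities. The regulatory particle on either end holds a ring of ATPases (Psmc genes) that unfold the substrate and non-ATPase subunits (most Psmd genes) that bind and remove ubiquitin. In cells of the immune system and in cells exposed to interferon, Psmb8, Psmb9 and Psmb10 take the places of Psmb5, Psmb6 and Psmb7 in newly made cores, called immunoproteasomes, and Psme1 and Psme2 form the PA28 activator. Both changes alter the peptides that are loaded on MHC class I.

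The start regions of the immune genes and of their constitutive counterparts are shown because interferon acts on these genes through short DNA motifs there. They come from RefSeq windows on GRCm38.p6 of 250 bases before and 50 after a gene's start. Bases that GENCODE M21 places in an exon were left out, except for up to 10 bases on each side of a motif. Lower case gives the gene's own strand from 5′ to 3′. Capitals mark a match to the core of the GAS element (TTCNNNGAA), of the interferon-stimulated response element (GAAANNGAAA), of the antioxidant response element (TGACNNNGC) or to a CCAAT box, searched on both strands.
Psmb8, chr17:34198088-34198116, GAS core 97 to 89 bases before the start: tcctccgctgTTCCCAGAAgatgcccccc
Psme1, chr14:55578493-55578522, interferon element core on the opposite strand, 10th to 19th base of the transcript: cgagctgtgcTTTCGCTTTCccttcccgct
Psmb9, chr17:34187331-34187348, CCAAT box on the opposite strand, 8 to 4 bases before the start: gcagccgctgATTGGaaa
Psmb10, chr8:105938445-105938642, no match: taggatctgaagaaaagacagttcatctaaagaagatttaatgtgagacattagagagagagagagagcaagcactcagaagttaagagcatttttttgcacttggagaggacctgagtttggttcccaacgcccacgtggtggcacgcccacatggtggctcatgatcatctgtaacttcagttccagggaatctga
Psme2, chr14:55591114-55591351, no match: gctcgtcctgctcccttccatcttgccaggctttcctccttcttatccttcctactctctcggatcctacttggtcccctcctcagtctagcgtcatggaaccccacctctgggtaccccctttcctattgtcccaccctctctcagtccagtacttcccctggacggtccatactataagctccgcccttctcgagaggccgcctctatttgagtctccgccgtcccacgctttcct
Psmb5, chr14:54618023-54618245, antioxidant core 47 to 39 bases before the start: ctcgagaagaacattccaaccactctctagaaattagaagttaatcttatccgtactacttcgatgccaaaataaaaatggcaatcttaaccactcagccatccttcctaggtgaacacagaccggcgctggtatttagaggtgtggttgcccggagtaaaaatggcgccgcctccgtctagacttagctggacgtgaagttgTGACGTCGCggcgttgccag
Psmb6, chr11:70525107-70525356, antioxidant core 9 to 1 bases before the start: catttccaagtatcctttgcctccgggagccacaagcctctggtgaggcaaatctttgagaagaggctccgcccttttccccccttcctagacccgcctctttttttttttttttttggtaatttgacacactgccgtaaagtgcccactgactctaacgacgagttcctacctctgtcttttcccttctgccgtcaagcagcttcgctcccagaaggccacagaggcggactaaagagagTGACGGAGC
The Psmb8, Psmb9 and Psme1 stretches lie in the 5′ untranslated exon sequence of longer GENCODE transcripts, since RefSeq and GENCODE start these genes at different bases. A match is a string of letters and no evidence of binding.

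Of the 41 subunits and assembly factors, 35 had such a window (38 windows in all), and Psmb1, Psmb2, Psmb7, Psmc3, Psmd3 and Psmd7 had none. The interferon element core was held by 4 of 38 windows (10.5%), those of Psmb3, Psmd4, Psmd9 and Psme1, against 3.44% of all 32851 windows. Only 1 of these 4 genes belongs to the immune set. The GAS core was found in 2 windows (5.26%), of Psmb8 and Psmd2, against 8.30% of all windows. The antioxidant core was found in 6 windows (15.8% against 12.4%) and the CCAAT box in 13 (34.2% against 37.4%). No match to 1 of these motifs overlapped a match to another in the windows of the members.

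The 42 genes together made up 5108, 5408, 5347 and 5278 CPM in replicates 1 to 4, a mean of 5285 ± 130 CPM (SD, n = 4). That is 0.530% of all UMIs, with a range of 0.511% to 0.541% between libraries. Their median level was 122 CPM, against 30.1 CPM for all 9092 genes at 5 CPM or more. Each molecule was counted once at its 3′ end, so these levels are compared between genes without a correction for length. A summed level is a share of the library, so that a change in the number of cells with a transcript and a change in the RNA of each cell cannot be told apart.

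**Figure D1:**
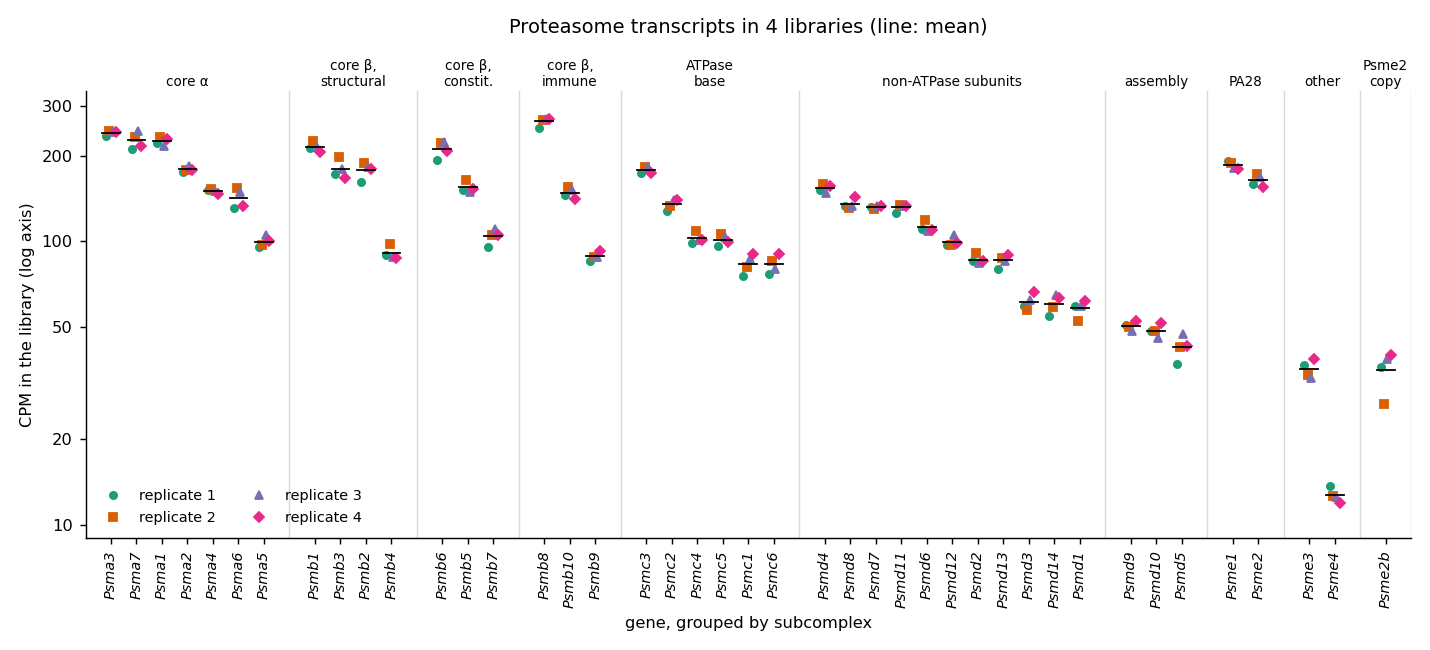
Level of each of the 42 proteasome genes in CPM (log axis) in each of 4 libraries, grouped by subcomplex, with a line at the mean of each gene. The points of a gene lie close together, Psmb8 is the highest gene at a mean of 266 CPM, and Psme4 the lowest at 12.7 CPM.

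The alpha ring of the core was the most abundant subcomplex, with 7 genes that summed to 1268 ± 34.3 CPM. Psma3 was its highest gene at 237, 245, 243 and 244 CPM, and Psma5 its lowest at 95.2, 97.5, 105 and 101 CPM. The 4 structural beta subunits summed to 665 ± 33.0 CPM. Psmb1 led them with 215 ± 7.65 CPM, and Psmb4 was lowest with 90.8 ± 4.78 CPM. In both rings, subunits that occur in equal numbers in the assembled core differed about as much in transcript level, 2.43-fold in the alpha ring and 2.37-fold among the structural beta subunits.

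The 6 ATPases of the regulatory particle summed to 651, 698, 696 and 695 CPM, and replicate 1 stood below the others. Psmc3 was the highest ATPase at 179 ± 5.12 CPM and Psmc6 the lowest at 83.2 ± 6.06 CPM. The 11 non-ATPase subunits summed to 1118 ± 21.3 CPM, from 154 ± 5.02 CPM for Psmd4, a receptor for ubiquitin chains, to 58.2 ± 4.11 CPM for Psmd1, a scaffold of the particle. Psmd14, the subunit that removes ubiquitin from the substrate, had 60.3 ± 4.76 CPM. The 3 Psmd genes that encode assembly chaperones were lower, with Psmd9 at 50.4 ± 1.59, Psmd10 at 48.4 ± 2.41 and Psmd5 at 42.3 ± 4.13 CPM.

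Among the activators, Psme1 had 193, 189, 182 and 181 CPM and Psme2 had 160, 174, 169 and 155 CPM, so that the levels of the PA28 genes did not overlap. Psme3, which forms the nuclear form of the activator, had 35.4 ± 2.55 CPM, and Psme4, which encodes a large single-chain activator, had 12.7 ± 0.776 CPM. Psme4 was the gene just inside the threshold of 5 CPM. Just outside it were Psmc3ip with 4.37 CPM, which is no subunit, and Psma8, an alpha subunit of the testis, with 4.09 CPM. Psmb11, the catalytic subunit of thymic epithelium, had 0.0854 CPM.

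Psme2b (ENSMUSG00000078153, GRCm38 chromosome 11, 48945354 to 48946190) had 36, 26.7, 38.3 and 39.9 CPM, with replicate 2 lowest. It consists of a single exon and shares sequence with Psme2, so the division of UMIs between them is uncertain. In all, 22 of the 42 genes overlap another annotated gene, 9 of them on the same strand, where reads cannot always be told apart.

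Transcripts of the constitutive and the immune catalytic subunits can be compared within each library. Protein levels and the make-up of the cores were not measured. Psmb8 (ENSMUSG00000024338, chromosome 17, 34197721 to 34201454, GRCm38) had 253, 269, 270 and 271 CPM, and its constitutive counterpart Psmb5 (ENSMUSG00000022193, chromosome 14, 54614119 to 54618022) had 152, 165, 150 and 153 CPM. Psmb8 was thus above Psmb5 in every library, and it was the highest of the 42 genes. Its log2 ratio to Psmb5 was 0.78 ± 0.071 (SD, n = 4), or 1.71-fold.

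The second pair ran in the opposite direction. Psmb9 (ENSMUSG00000096727, chromosome 17, 34181987 to 34187764) had 85.6, 88.5, 88.3 and 92.4 CPM, against 193, 223, 224 and 209 CPM of Psmb6 (ENSMUSG00000018286, chromosome 11, 70525367 to 70527858). The log2 ratio of Psmb9 to Psmb6 was -1.26 ± 0.093, or 0.419-fold, and the levels did not overlap.

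In the third pair, Psmb10 (ENSMUSG00000031897, chromosome 8, 105935735 to 105938444) had 146, 155, 153 and 141 CPM, and Psmb7 (ENSMUSG00000026750, chromosome 2, 38588036 to 38644087) had 95.7, 105, 111 and 106 CPM. Psmb10 was the higher gene in every library, with a log2 ratio of 0.51 ± 0.092, or 1.43-fold. The order of levels of the 6 genes was Psmb8, Psmb6, Psmb5, Psmb10, Psmb7 and Psmb9. Within it, Psmb5 and Psmb10 overlapped between libraries, and the other neighbours did not.

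The differences nearly cancelled in the sums. The 3 immune catalytic genes summed to 484, 513, 511 and 504 CPM (503 ± 13) and the 3 constitutive genes to 441, 493, 484 and 468 CPM (472 ± 22.8), a log2 ratio of 0.094 ± 0.034 or 1.07-fold. For PA28, the log2 ratio of Psme1 to Psme2 was 0.18 ± 0.079. Each of these 5 ratios had the same sign in 4 of 4 libraries, and in an exact sign-flip permutation test (two-sided) each gave the smallest p that 4 libraries allow, 0.12 before and after adjustment over the 5. The test cannot pass 0.05 with this number of libraries.

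**Figure D2:**
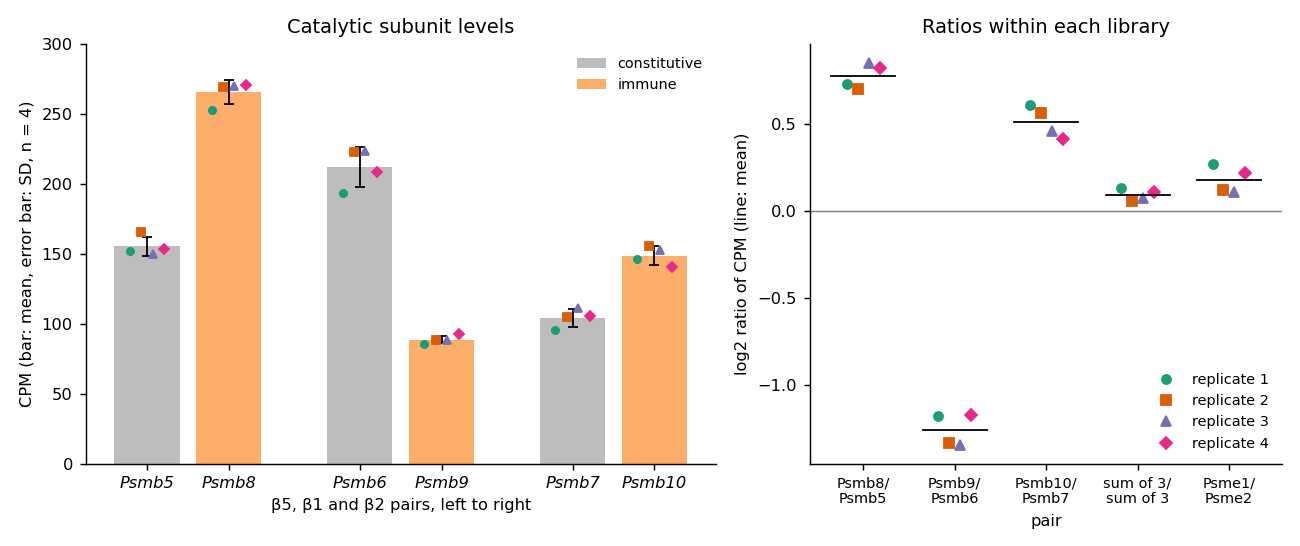
Left, CPM of the constitutive (grey) and immune (orange) catalytic subunits, with bars at the mean, error bars of 1 SD and 1 symbol per library (n = 4); right, log2 ratios of CPM within each library, with a line at the mean. Psmb8 and Psmb10 lie above their counterparts and Psmb9 lies below Psmb6 in each of the 4 libraries.

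Some of the immune genes are neighbours. Psmb8 and Psmb9 lie in the MHC region of chromosome 17 together with Tap1 and Tap2, which encode the transporter that carries the peptides into the endoplasmic reticulum. The Tap1 gene ends 495 bases before the start of Psmb8, and its start overlaps that of Psmb9 on the opposite strand by 212 bases. Psme1 (chromosome 14, 55578123 to 55581529) and Psme2 (chromosome 14, 55587441 to 55591113) are 5911 bases apart on opposite strands.

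Neighbours on the chromosome differed in level. Tap1 had 34.6 ± 3.34 CPM, below both Psmb8 and Psmb9, and Tap2 had 96.3 ± 2.13 CPM. Irf1, a transcription factor that acts on Psmb9 and Tap1, had 37.5 ± 1.02 CPM.

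The question for the 4 libraries was whether they agreed. The SD of log2(CPM + 1) over the libraries had a median of 0.063 for the 42 genes, against 0.117 for all 9092 genes and 0.084 for the 2021 genes whose level was within 2-fold of the members' median. In 33 of the 42 the SD was below 0.1. The smallest were those of Psmd7, the partner of Psmd14, with 133, 130, 134 and 134 CPM (SD 0.017), and of the alpha subunits Psma3 (SD 0.024) and Psma4 (SD 0.025). The largest were those of Psme2b (SD 0.25), of Psmd5 with 37.0, 42.4, 47.1 and 42.8 CPM (SD 0.14), and of Psma6 with 131, 155, 149 and 133 CPM (SD 0.12).

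**Figure D3:**
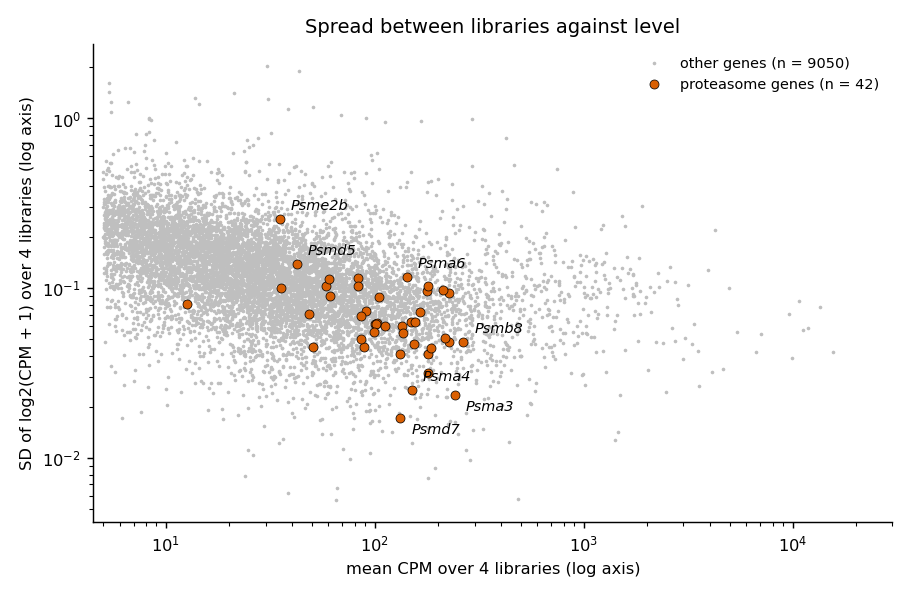
SD of log2(CPM + 1) over the 4 libraries against mean CPM (both axes logarithmic) for the 42 proteasome genes (orange) and the other genes at 5 CPM or more (grey). Most proteasome genes lie in the lower part of the cloud at their level, with a median of 0.063 against 0.084 among genes of similar level, and Psme2b lies highest at 0.25.

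Dixon's test asks whether the lowest or highest library stands too far from the next one for the spread of its group, at the 95% critical value for 4 samples. A library was set apart in 4.62% of the 9092 genes and in 1 of the 42. This was Psmb8, whose 253 CPM in replicate 1 was below the 269 to 271 CPM of the others. Among the subcomplexes only the ATPase sum was set apart, again by a low replicate 1, at 651 against 695 to 698 CPM. The deviation of Psmb8 did not exceed counting error by the next test (adjusted p = 0.211 in a chi-square test over all genes).

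Counts of 26.7% of all genes differed between libraries by more than counting error (chi-square test of UMI counts, Benjamini-Hochberg over 9092 genes), and 8 of the 42 did so. They were Psma6, Psma7, Psmb2, Psmb3, Psmb6, Psmc1, Psme2 and Psme2b. Psmb3, for example, had 174, 198, 181 and 168 CPM, highest in replicate 2, and Psmb2 had 162, 189, 183 and 180 CPM, lowest in replicate 1. Different libraries were thus the extreme ones in these genes. Psme2 was the 1 immune gene among the 8.

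Replicate 1 held the lowest value of 20 of the 42 genes and the highest of 2. The median deviation of the 42 from the mean of the other libraries was -0.049 in replicate 1, 0.032 in replicate 2, 0.015 in replicate 3 and 0.019 in replicate 4 on the log2 scale. Over all genes these medians were -0.014, -0.027, 0.015 and 0.025. In replicate 1, 8 of the 42 lay above the mean of the other libraries, against 45.9% of all genes. In replicate 4, where the immediate early genes stood high, 23 of the 42 proteasome genes were above the mean of the other libraries, as were 56.2% of all genes. The 5 immune genes summed to 837, 875, 862 and 840 CPM, so that replicates 1 and 4 were nearly equal in them.

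The libraries also held a few cells with an interferon response, in which immune and constitutive subunits could be compared with the remaining cells of the same mouse. Each cell with at least 1000 UMIs was thinned to 1000 UMIs, and a cell was called interferon-positive when it held at least 3 UMIs from at least 2 of 11 interferon-induced genes, none of them a proteasome gene. There were 17, 12, 6 and 5 such cells in replicates 1 to 4, or 0.486%, 0.327%, 0.241% and 0.162% of cells (exact 95% intervals 0.284% to 0.778% in replicate 1 and 0.0527% to 0.378% in replicate 4). Their median UMI counts (2002, 2804.5, 2404 and 2750) were near those of the remaining cells (1917, 2940.5, 2223 and 2812.5). Of 10 further interferon-induced genes that did not choose the cells, all 10 were above expectation in them, for example Bst2 at 7.32 and Rtp4 at 33.1 times the expected UMIs. These 10 genes were not specific to this class, since they were also above expectation in the MHC class II-positive cells described below.

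The interferon-positive cells carried about 2-fold the immune proteasome transcripts, while the other subunits were at the level of the remaining cells. The 5 immune genes had 1543, 1403, 2072 and 2517 CPM in interferon-positive cells of replicates 1 to 4, against 835, 874, 854 and 835 CPM in the remaining cells. The groups did not overlap. Counts were also set against those expected from the remaining cells of the same libraries: 178 UMIs were found where 89.6 were expected, a ratio of 1.99 (exact Poisson 95% interval 1.71 to 2.30, which covers counting error only). The other 36 subunits and assembly factors had 447 UMIs where 462 were expected (0.968, 0.880 to 1.06). Of the 3097 genes with a mean of at least 50 CPM in the remaining cells, the median gene had a ratio of 0.925.

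By subcomplex, the immune catalytic genes were at 1.94 times the expected UMIs (1.58 to 2.36) and PA28 at 2.05 times (1.62 to 2.57), each higher in 4 of 4 libraries. The constitutive catalytic genes were at 0.969 (0.714 to 1.28), the alpha ring at 0.893 (0.740 to 1.07), the ATPases at 0.990 (0.773 to 1.25) and the non-ATPase subunits at 1.04 (0.865 to 1.24). These 4 intervals include 1, and a change within them was not detectable at this depth.

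Tests per gene were made among all genes with a mean of at least 50 CPM in the remaining cells, a limit in which the levels in the class play no part and which was chosen after the data had been seen. It admitted 37 of the 42 proteasome genes. Of 3097 genes, 1.26% were higher and 0.0323% lower in interferon-positive cells at an adjusted p under 0.05, and 2 of the 37 proteasome genes, Psmb8 and Psme1, were higher.

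Psmb8 had 602, 494, 829 and 791 CPM in interferon-positive cells and 250, 269, 266 and 270 CPM in the remaining cells. Its log2 fold change was 1.28 (SE 0.264, adjusted p = 0.000234, edgeR quasi-likelihood test with library as a block), and it passed when any 1 library was left out (1.21 to 1.41, adjusted p = 0.00168 to 0.0325, edgeR). Psme1 had 340, 364, 484 and 575 CPM against 193, 188, 179 and 179 CPM, a log2 fold change of 1.15 (SE 0.300, adjusted p = 0.0125, edgeR). In both genes every interferon-positive value lay above every remaining one. Psme1 did not pass without replicate 1 (adjusted p = 0.0828), replicate 2 (adjusted p = 0.104) or replicate 4 (adjusted p = 0.117, edgeR), at log2 fold changes of 1.28, 1.2 and 1.05.

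Psme2 had 314, 208, 345 and 647 CPM against 160, 174, 167 and 154 CPM, also without overlap, with a log2 fold change of 1.02 (SE 0.323) that did not pass the threshold (adjusted p = 0.101, edgeR). Psmb9 had 78.5, 260, 138 and 288 CPM against 86.2, 88.0, 87.8 and 91.9 CPM, higher in 3 of 4 libraries. It rested on 19 UMIs where 9.23 were expected, a ratio of 2.06 (1.24 to 3.21), and did not pass in edgeR (adjusted p = 0.422). Psmb10 had 209, 77.9, 276 and 216 CPM against 146, 156, 153 and 140 CPM, and its 18 UMIs against 15.8 expected gave 1.14 (0.677 to 1.80), so its groups overlapped. The constitutive genes had few UMIs as well, at ratios of 0.724 for Psmb5, 1.17 for Psmb6 and 0.925 for Psmb7, each with an interval that included 1.

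With edgeR's own filter on low counts, 621 genes entered the test, of which 4.83% were higher in interferon-positive cells. With sums this small, a gene of these levels passes that filter only through a class in which its count is high. The 4 proteasome genes that entered (Psmb8, Psme1, Psme2 and Psmb6) had in part to differ, and their calls, Psmb8 (log2 fold change 1.31) and Psme1 (1.19), are given here as a description.

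A larger class was also formed, after the data had been seen, from the same cells with all their UMIs, which gave 27, 27, 14 and 18 interferon-positive cells. Depth was not equalised in this choice. The median UMI counts were 2195, 3139, 2589 and 3036.5 in replicates 1 to 4. Those of the remaining cells were lower in each library, at 1916, 2940, 2223 and 2810. Markers of other cells are given below for the smaller class only. By the same limit of 50 CPM, 37 proteasome genes were tested among 3096, of which 1.55% were higher and 0.0969% lower in the class. Psme1 (log2 fold change 1.09, adjusted p = 3.93e-05), Psme2 (1.03, adjusted p = 0.000198) and Psmb8 (0.96, adjusted p = 0.000248) rose in the edgeR test, each also when any 1 library was left out, and no other of the 37 passed. Psmb9 had a log2 fold change of 0.89 (adjusted p = 0.0889, edgeR) and Psmb10 of 0.33 (adjusted p = 0.736, edgeR). The UMIs of the 5 immune genes were at 1.72 times expectation (1.56 to 1.89) in the larger class, and the immune catalytic genes at 1.59 (1.39 to 1.81). The UMIs of the other 36 subunits and assembly factors were at 1.0 times expectation (0.95 to 1.06), a narrower interval than in the smaller class. Among these, the structural beta subunits were at 1.15 (1.01 to 1.31), an interval above 1.

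**Figure D4:**
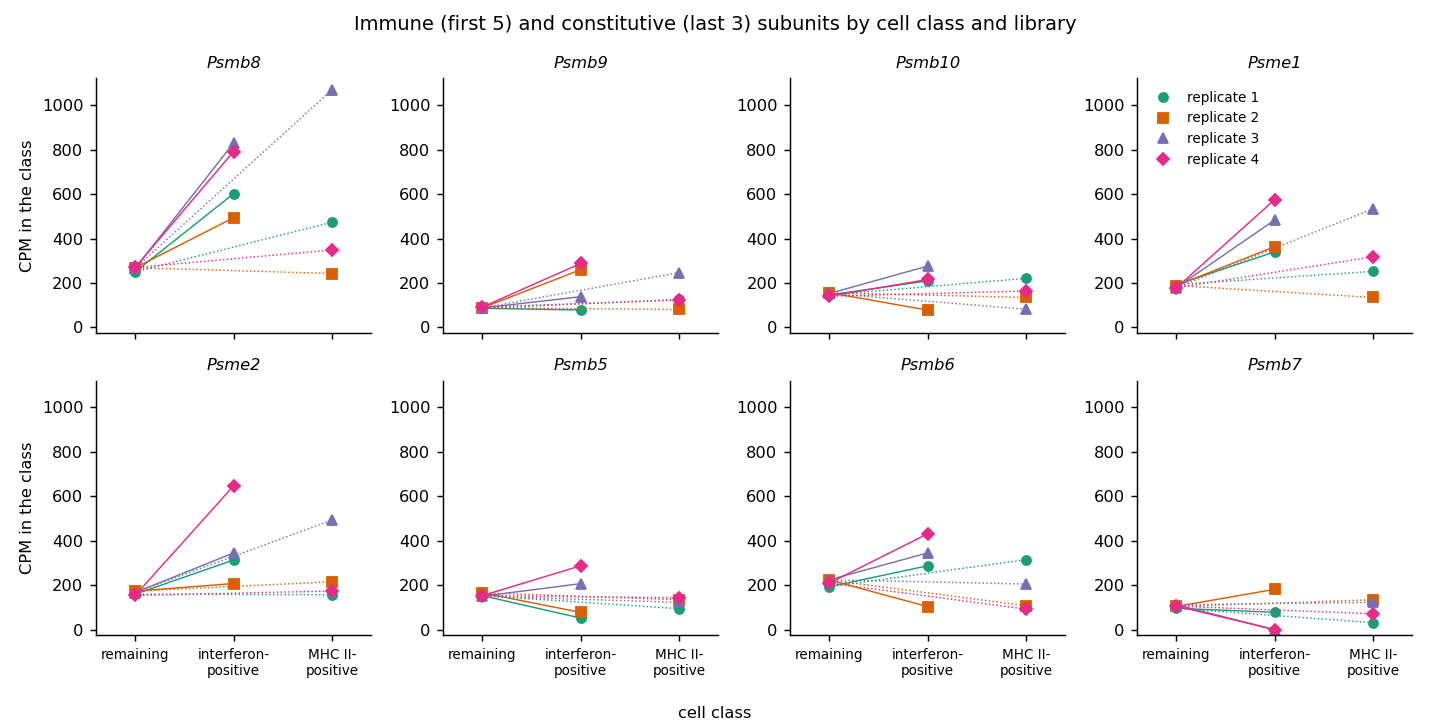
CPM of the 5 immune and 3 constitutive subunits in the remaining, interferon-positive and MHC class II-positive cells, with 1 symbol and line colour per library (solid to interferon-positive, dotted to MHC class II-positive). All 4 libraries are higher for Psmb8, Psme1 and Psme2 in interferon-positive cells, while Psmb5, Psmb6 and Psmb7 move in both directions.

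The balance of catalytic subunit transcripts moved by about a doubling in the smaller interferon-positive class, and a shift in the MHC class II-positive cells is given below. The log2 ratio of the 3 immune to the 3 constitutive genes was 1.09, 1.19, 1.17 and 0.85 in the interferon-positive cells of replicates 1 to 4 and 0.12, 0.052, 0.057 and 0.096 in the remaining cells. The mean difference was 0.99 ± 0.18 (SD, n = 4), positive in 4 of 4 libraries, with the smallest p of the exact sign-flip permutation test, 0.12. In the larger class it was 0.65 ± 0.099, again positive in 4 of 4 libraries. The ratios of the smaller class rest on few constitutive UMIs, 16, 14, 8 and 10 in replicates 1 to 4. Psmb8 alone held 65 of its 102 immune UMIs.

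Markers of other cells were low in the smaller interferon-positive class, with 1 exception. The 6 border macrophage markers and the markers of neutrophils, T cells, B cells, astrocytes, neurons, oligodendrocytes and proliferating cells were all at 0. The monocyte sum was 0 to 52.3 CPM in replicates 1 to 3 and 1941 CPM in replicate 4 (3 of 4 genes, Ccr2 at 0), against 9.58 to 33.5 CPM in the remaining cells. The 6 microglial markers summed to 27715 to 30395 CPM in replicates 1 to 3 and to 16970 CPM in replicate 4, against 30839 to 32255 CPM. Of the 5 interferon-positive cells of replicate 4, 1 also met the MHC class II criterion given next. MHC class II transcripts summed to 4746 CPM in the interferon-positive cells of replicate 4, against 51.9 to 366 CPM in those of replicates 1 to 3. The cells of replicate 4 also had the highest sum of the 5 immune genes, 2517 CPM. The part of these cells in the result was not tested. Without replicate 4 Psmb8 passed at a log2 fold change of 1.26 (adjusted p = 0.00308, edgeR), and Psme1 did not pass, as given above.

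MHC class II-positive cells, which present peptides from outside the cell, were taken as a second class (at least 10 UMIs from at least 2 of Cd74, H2-Aa, H2-Ab1 and H2-Eb1 in the thinned cells, and not interferon-positive). There were 9, 7, 6 and 27 such cells in replicates 1 to 4, or 0.258%, 0.191%, 0.241% and 0.876%. They were not typical microglia, since the 6 microglial markers summed to only 3780 to 15715 CPM. The border macrophage markers summed to 411 to 1451 CPM (5 of 6 genes, Lyve1 at 0) and the monocyte markers to 647 to 3862 CPM (3 of 4 genes, Ly6c2 at 0), both above the remaining cells. The part of such cells in the results that follow was not tested. The 10 further interferon-induced genes were above expectation in this class as well. Their ratios ran from 2.22 (Phf11d) to 26.7 (Oasl2), each with an interval above 1. The part of an interferon response in the results of this class was not tested.

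In these cells Psmb8, Psme1, Psme2 and Psma7 passed as higher relative to other genes, and the ATPase Psmc2 as lower, in tests given below. The 4 of 37 tested proteasome genes that were higher were a share near the 9.69% of all 3097 genes. The 1 lower gene was a smaller share than the 8.23% of all genes. The 5 immune genes had 1230, 809, 2424 and 1127 CPM against 835, 874, 854 and 835 CPM, above the remaining cells in 3 of 4 libraries. Replicate 3, with 6 cells, was highest and replicate 2 was below its remaining cells. MHC class II transcripts alone made up 50811 to 95120 CPM of this class. Most other genes were lower: the median of the 3097 genes had a ratio of observed to expected UMIs of 0.699. The cause of this general drop was not tested. The 5 immune genes were at 1.48 (1.29 to 1.68), the other 36 at 0.814 (0.754 to 0.877), the ATPases at 0.576 (0.454 to 0.721) and the non-ATPase subunits at 0.710 (0.602 to 0.832). Divided by the median gene, these ratios were 2.11, 1.16, 0.824 and 1.02, and the intervals of the ATPases (0.649 to 1.03) and the non-ATPase subunits then included 1. The ATPases had 442, 431, 288 and 400 CPM, against 653, 699, 699 and 699 CPM in the remaining cells, without overlap. The log2 ratio of the immune to the constitutive catalytic genes exceeded that of the remaining cells by 0.88 ± 0.55 (SD, n = 4). The difference was positive in 4 of 4 libraries. In the class formed with all UMIs, given below, it was 0.97 ± 0.61, again positive in 4 of 4. The constitutive catalytic genes were at 0.766 times the expected UMIs (0.596 to 0.969) in the thinned class, and the immune ones at 1.45 (1.22 to 1.72). Divided by the median gene, the constitutive ones were at 1.10 (0.852 to 1.39) and the immune ones at 2.08 (1.75 to 2.45).

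Of 3097 genes with at least 50 CPM in the remaining cells, 9.69% were higher and 8.23% lower in MHC class II-positive cells by edgeR, and of the 37 proteasome genes 4 were higher and 1 was lower. Psmb8 had 473, 243, 1068 and 348 CPM, a log2 fold change of 1.18 (SE 0.246, adjusted p = 2.71e-05, edgeR), and passed when any 1 library was left out. Psme1 had 252, 135, 534 and 318 CPM, a log2 fold change of 1.07 (SE 0.271, adjusted p = 0.000954, edgeR). In replicate 2 both genes were below the remaining cells. Psme1 did not pass without replicate 4 (0.87, adjusted p = 0.107, edgeR).

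Psme2 had a log2 fold change of 0.86 (adjusted p = 0.0241, edgeR) and the alpha subunit Psma7 one of 0.74 (adjusted p = 0.0348, edgeR). Psme2 did not pass without replicate 3 (0.59, adjusted p = 0.264) or 4 (0.97, adjusted p = 0.0704), nor Psma7 without replicate 1, 3 or 4 (0.64, 0.74 and 0.72, adjusted p = 0.209, 0.0612 and 0.186, edgeR). Psmc2 fell by 1.99 on the log2 scale (SE 0.584, adjusted p = 0.00569, edgeR), from 5 UMIs where 26.3 were expected, and passed when any 1 library was left out. Scaled to library totals, which moved the median gene from -0.12 to -0.52, 205 genes were higher and 648 lower in place of 300 and 255, Psmb8 (0.82), Psme1 (0.68) and Psmc2 (-2.40) still passed, and Psme2 (0.48) and Psma7 (0.36) did not. With edgeR's own filter, 33% of the 621 genes were higher, among them Psmb8 (1.04) and Psme1 (0.91), which is again a description.

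In the class formed with all UMIs (10, 9, 6 and 31 cells), 10.5% of 3096 genes were higher and 8.11% lower. Of 37 proteasome genes, Psmb8 (log2 fold change 1.16), Psme2 (0.95), Psme1 (0.93), Psma7 (0.87) and Psmd14, the deubiquitinase of the lid (1.12), were higher and Psmc2 was lower by the edgeR test (adjusted p = 1.13e-05, 0.00287, 0.00268, 0.00254, 0.0216 and 0.0194). Psmd14 had 27.4, 152, 157 and 95.1 CPM against 54.4, 58.0, 64.7 and 63.2 CPM, so that replicate 1 ran the other way. Psma7 had 357, 282, 418 and 303 CPM against 213, 233, 245 and 216 CPM, and Psmc2 had 27.4, 86.8, 52.2 and 25.9 CPM against 129, 134, 142 and 141 CPM, both without overlap.

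Without replicate 4, which held most of these cells, Psmb8 alone of the 6 passed (1.22, adjusted p = 0.000267, edgeR). The others then had log2 fold changes of 0.94 (Psme2), 0.61 (Psme1), 0.81 (Psma7), 1.15 (Psmd14) and -0.94 (Psmc2). Psmd14 also failed without replicate 2 (0.92, adjusted p = 0.175) or 3 (1.06, adjusted p = 0.0616), and Psmc2 without replicate 1 (-1.29, adjusted p = 0.0609, edgeR). Scaled to library totals, Psmb8 was the 1 proteasome gene that was higher, and Psmc2, Psmc3 and Psmd6 were lower. Whether any gene differed between the interferon-positive and the MHC class II-positive cells was not tested.

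**Figure D5:**
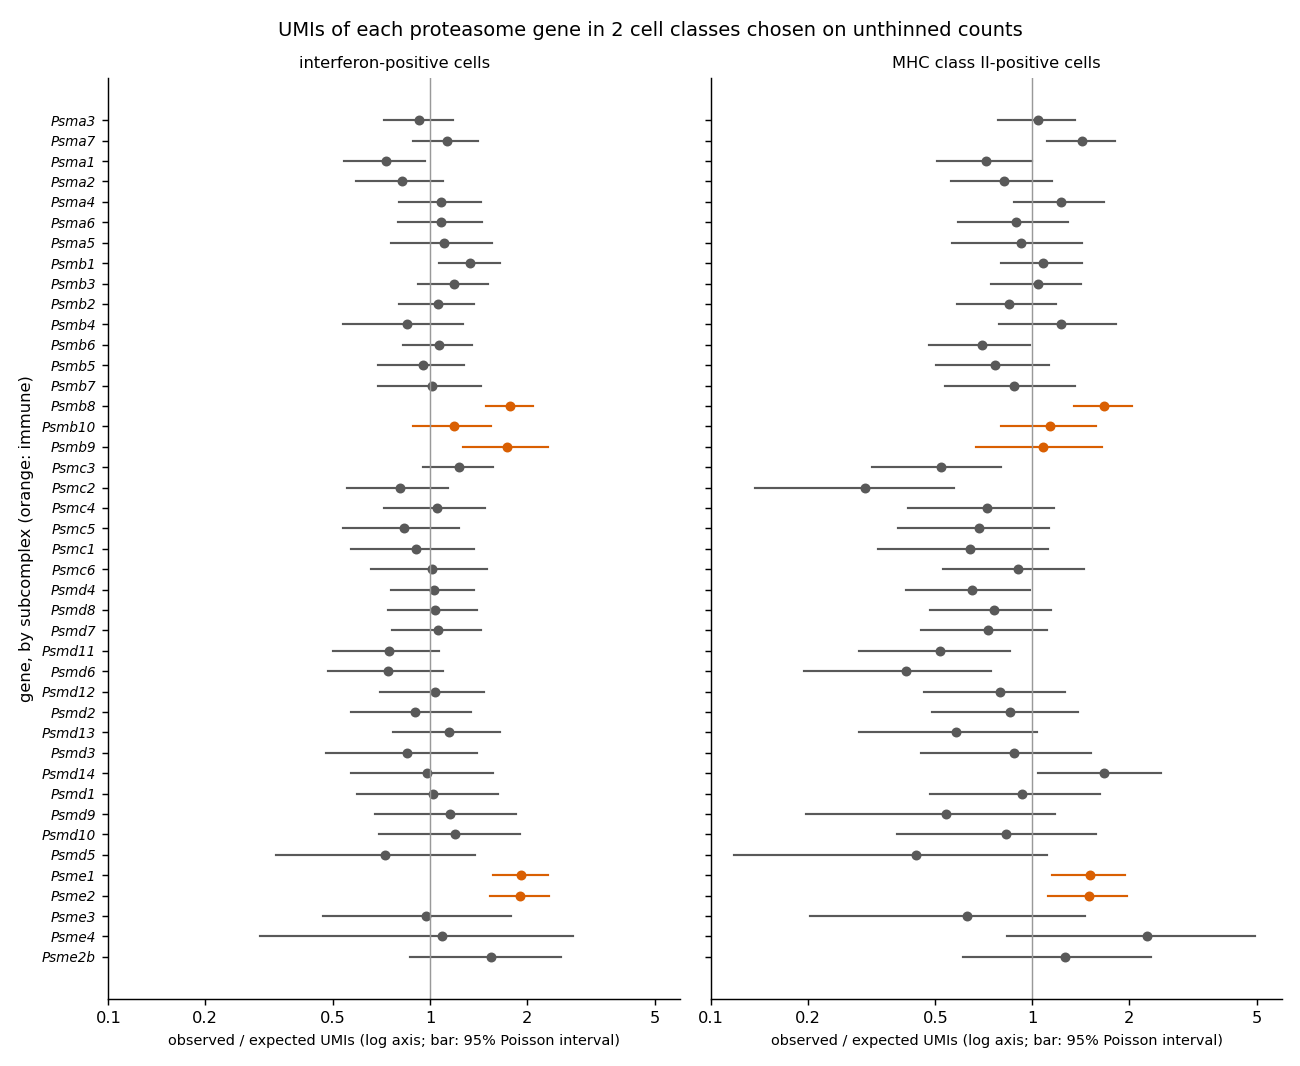
Observed over expected UMIs (log axis) of each of the 42 proteasome genes in interferon-positive (left) and MHC class II-positive cells (right), chosen with all UMIs, with exact Poisson 95% intervals and the immune genes in orange. On the left 4 of 5 immune genes have an interval above 1, and of the 36 others Psmb1 has one above and Psma1 one below (median 1.02), against 7.27% above and 8.95% below among 3096 genes at 50 CPM or more. On the right 3 of 5 immune genes have an interval above 1, and of the 36 others 2 (Psmd14 and Psma7) have one above and 7 one below (median 0.805), against 9.3% and 34.5% among the 3096 genes, whose median was 0.720.

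The other genes of the pathway were fewer in the tests. The core assembly factor Pomp had 346 ± 5.43 CPM, above every proteasome subunit, and Psmg1 to Psmg4, which pair the alpha subunits, had 20.4 to 40.7 CPM. Shfm1, the small subunit of the regulatory particle, had 253 ± 5.37 CPM. Nfe2l2, the regulator that binds the antioxidant element, had 288 ± 7.07 CPM, and Nfe2l1, which raises proteasome genes when the proteasome is inhibited, had 31.3 ± 3.14 CPM. Nlrc5, the activator of MHC class I genes, had 0.798 ± 0.532 CPM.

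Of these 23 pathway genes 8 had at least 50 CPM in the remaining cells and could be tested in each class. In interferon-positive cells 0 of 8 passed in the edgeR test. B2m, the light chain of MHC class I, was the 1 gene under 0.05 before adjustment (log2 fold change 0.45, adjusted p = 0.620, edgeR). DESeq2 was run only with edgeR's own filter, on 621 genes, and B2m passed in it. In MHC class II-positive cells Shfm1 was higher (log2 fold change 1.12, SE 0.245, adjusted p = 7.67e-05, edgeR), with 473, 404, 411 and 410 CPM against 247, 256, 257 and 249 CPM, and it passed when any 1 library was left out. This was 1 of 8, beside 9.69% of all 3097 genes. With all UMIs B2m was also higher, though not without replicate 4. With library totals Tap2 was lower in the thinned class. No pathway gene was called in this class without a filter on low counts, or without the top 1% of cells by UMIs under edgeR's own filter.

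Irf1 and Tap1 were below the limit of 50 CPM and were not tested under it. Without a filter on low counts both were higher in interferon-positive cells by edgeR. In that fit 93 of 15559 genes were higher, the median gene was at -1.04, and 0 of the 42 proteasome genes were higher. With edgeR's own filter and all UMIs Irf1 was among the 72 of 1542 genes that were higher, which is again a description. Irf1 had 22 UMIs in the thinned interferon-positive class, a ratio of 5.68 to expectation (3.56 to 8.60), and 3.46 (2.43 to 4.76) in the class formed with all UMIs. Tap1 had 23 UMIs in the thinned class where 3.59 were expected, a ratio of 6.41 (4.06 to 9.62), and 36 UMIs where 9.66 were expected in the class formed with all UMIs, a ratio of 3.73 (2.61 to 5.16). Its neighbours Psmb8 and Psmb9 were at 2.36 (1.82 to 3.01) and 2.06 in the thinned class and at 1.77 and 1.74 in the other. In the thinned interferon-positive class 4.71% of the 3097 genes had such an interval above 1 and 5.39% below, and in the MHC class II-positive class 9.17% and 34.6%. Irf1 and Tap1, at 36.7 and 33.4 CPM in the remaining cells, are not among these 3097 genes.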

How the data were processed

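Single-cell RNA sequencing libraries of sorted myeloid cells from 4 mice were analysed. The authors deposited raw UMI counts per gene and cell, made from 10x Genomics 3′ libraries with Cell Ranger 2.2.0 on mm10 (GRCm38), without normalization. Coordinates follow GENCODE M21. Libraries held 5867333 to 11275195 UMIs. Counts of the kept cells were summed per library and scaled to CPM, and no doublets were removed. The replicate numbers follow the sample order.

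Differences between libraries were tested with Dixon's range test and a chi-square test of counts, and ratios with an exact sign-flip permutation test. For cell classes, counts were summed per class and library, since cells are not replicates, and tested with edgeR 4.0.16 (R 4.3.3; quasi-likelihood test, TMM scaling, filterByExpr) with Benjamini-Hochberg adjustment over all tested genes, without the genes that chose the classes. Library was a block, since the classes of a library come from the same mouse. Since low genes pass filterByExpr only through a class where they are high, the tests printed for single genes used a mean of at least 50 CPM in the remaining cells in its place, chosen after the data were seen. The tests across genes were tested on simulated data. DESeq2 1.42.0, other scalings, filters and class limits, and leaving out each library were alternatives.

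The immune subunits and their counterparts, the extremes of each subcomplex and of the spread, and genes that passed a test were named by rule. Psmd10, Psmd14, Psmb2, Psmb3 and pathway genes not tested under the limit of 50 CPM were named after their values were seen. The members and lists were chosen with earlier results of these data known. Protein sequences were not used here.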

Additional observations from a re-analysis of the deposited data

Results flagged for a closer look

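Psmb8 was set apart by replicate 1, at 253 CPM against 269 to 271 CPM in the other libraries (ratio of gap to range 0.907). The summed level of the 6 ATPases was set apart by the same library, at 651 against 695 to 698 CPM (ratio 0.937). The share of MHC class II-positive cells was set apart by replicate 4, at 0.876% against 0.191% to 0.258% (ratio 0.903). Of 60 values tested, 3 had 1 library apart, and chance alone sets about 5% of groups of 4 apart.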

How the results depend on the processing

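Of 565 recomputed values of 41 results, 457 kept their direction and their side of the threshold. With TMM scaling 3 genes had 1 library apart and 13 differed beyond counting error, and the median deviations became 0.073 in replicate 2, -0.014 in replicate 3 and -0.013 in replicate 4, the last 2 reversed, beside 0.013, -0.013 and -0.0059 over all genes. With DESeq2 size factors, and in cells with at least 1000 genes, 2 genes had 1 library apart. Leaving out 1 library at a time gave 5 to 8 proteasome genes (5 without replicate 1 or 2) and 1500 to 2325 of all genes beyond counting error (1500 without replicate 4), 0 to 3 members (0 without replicate 1 with edgeR's filter) and 22 to 57 genes in interferon-positive cells, and 0 to 5 members (0 without replicate 3 with edgeR's filter) and 322 to 560 genes in MHC class II-positive cells. Members higher in interferon-positive cells numbered 1 with another thinning seed, where Psmb8 had a log2 fold change of 1.04 (adjusted p = 0.0706, edgeR), or with at least 1000 genes per cell, where Psme1 had 1.14 (adjusted p = 0.0788, edgeR). Without a filter on low counts, 15559 genes were tested, the median gene moved to -1.04 and -0.96, 144 were called in interferon-positive and 804 in MHC class II-positive cells, 0 members were higher in either class, 1 (Psmc2) was lower in the second, and Psmb6 turned to -0.30 in interferon-positive cells. In MHC class II-positive cells Psmb6 had log2 fold changes of -0.39 to 0.22 when 1 library was left out, reversed without replicate 4 (0.061, or 0.22 with the limit of 50 CPM) and, with that limit, without replicate 2 (0.072, or 0.085 with all UMIs), and called under none. With all UMIs, chosen after seeing the data, 0.664% of cells were interferon-positive, 75 genes were called in them, and 579 genes, 4 members higher and 1 lower, were called in MHC class II-positive cells. With no replicate block the log2 fold changes in interferon-positive cells were 1.27 for Psmb8 and 1.14 for Psme1, the calls in them did not change, and Psme2 passed in MHC class II-positive cells (0.70, adjusted p = 0.0395, edgeR). With the limit of 50 CPM in the remaining cells, chosen after seeing the data, in place of edgeR's filter, members higher numbered 2 in interferon-positive cells (3 with all UMIs, where 51 genes were called) and 4 in MHC class II-positive cells (5 with all UMIs, 5 with no replicate block, 6 with both), and 1 (Psmc2) was lower. In the second class 555 genes were called, 575 with all UMIs, 602 with no replicate block and 578 with both, and with library totals 853 (2 members higher and 4 lower) or 891 (1 higher and 3 lower, all UMIs). Except where a value shows it, the cause was not tested. The number of cells in the small classes limits every statement on them.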
